A study of Homo sapiens with 18 samples.

Results

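NEAT1 and MALAT1 are long noncoding RNA (lncRNA) genes that lie next to each other on the plus strand of chromosome 11, and DNA-RNA hybrids over them were followed here in HCT116 cells treated with camptothecin (CPT). The pair was chosen by name from the gene annotation, 2 genes of 64449 in GENCODE release 44 on GRCh37 (hg19), and each was taken with 10 kb on either side as its window. NEAT1 (ENSG00000245532) spans chr11:65190245-65213011 and its window chr11:65180245-65223011, 42767 bp. MALAT1 (ENSG00000251562) spans chr11:65265111-65275544 and its window chr11:65255111-65285544, 30434 bp.

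HCT116 is a line of human colorectal carcinoma epithelial cells. Cells were untreated (NT) or received 10 μM CPT, an inhibitor that traps topoisomerase 1 on DNA, for 5 or 60 min, and each treatment had 2 biological replicates. In DRIP-seq, genomic DNA cut with restriction enzymes is immunoprecipitated with the S9.6 antibody, which binds DNA-RNA hybrids, and sequenced. Each replicate also gave a library whose DNA was digested with RNase H, which degrades the RNA of a hybrid, before the immunoprecipitation. All groups share 1 cell line and 1 antibody, and no transgene or allele differs between them. Peak lists of genomic DNA hold no RNA level, so the identity of the cells was not checked against marker genes. The data are peak lists, 1 for each of the 6 DRIP and 6 RNase H libraries, called by the authors in every library on its own against its input. A peak carries a position, a fold enrichment over input and a q value but no read count. The paper reports read numbers for the DRIP-seq libraries, which were not used here. Whether a short list reflects depth or digestion cannot be told from the lists. The DRIP lists held 30314 to 72879 peaks over 25.0 to 82.2 Mb and the RNase H lists 473 to 67188 peaks over 0.157 to 56.7 Mb, and replicate 2 had the longer list in each pair. The RNase H list of NT replicate 1 (473 peaks) stands apart as the shortest. A missing peak is a locus below the threshold of its list and does not show that hybrids were absent.

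Both RNAs stay in the nucleus. NEAT1 is the scaffold of paraspeckles, bodies built around its long isoform by proteins such as NONO and SFPQ, while a short isoform ends early at a poly(A) site. MALAT1 collects in nuclear speckles, which are rich in splicing factors, and its 3′ end is made by RNase P cleavage and protected by a triple helix. Both genes are transcribed at high levels in many cell lines. Hybrids form behind RNA polymerase where nascent RNA pairs with its template, more readily where the RNA is rich in G (a positive GC skew, the excess of G over C divided by their sum), and topoisomerase 1 relaxes the supercoils that accompany this transcription.

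The sequences around the starts of the 2 RNAs are shown because the best NEAT1 DRIP peaks had their summits near the first. At MALAT1 the CPT DRIP peaks nearest the 5′ end began just before the start shown. The summits of the best MALAT1 DRIP peaks lay 1767 to 5844 bases after that start. They were read from GRCh37, plus strand, with the recognition sites of the enzymes of the study in capitals: HindIII (AAGCTT), EcoRI (GAATTC), XbaI (TCTAGA), SspI (AATATT) and BsrGI (TGTACA), which read the same on both strands. The long NEAT1 isoform starts at position 65190269 and the first run covers chr11:65190209-65190424. Most often annotated among the 66 MALAT1 transcripts was a start at 65266516, shared by 19 of them and called the main start here, and the second run covers chr11:65266416-65266615.
NEAT1 start: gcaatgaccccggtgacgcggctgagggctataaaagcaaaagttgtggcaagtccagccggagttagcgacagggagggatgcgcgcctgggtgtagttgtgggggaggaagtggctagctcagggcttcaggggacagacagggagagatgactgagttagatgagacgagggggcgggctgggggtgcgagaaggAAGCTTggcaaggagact
MALAT1 main start: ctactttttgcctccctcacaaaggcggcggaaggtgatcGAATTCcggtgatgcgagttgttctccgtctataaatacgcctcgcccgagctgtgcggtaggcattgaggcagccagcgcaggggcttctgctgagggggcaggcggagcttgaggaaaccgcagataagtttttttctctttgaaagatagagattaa
The HindIII site of the first run gave the left edge of 4 RNase H peaks and the EcoRI site of the second the left edge of 4 DRIP and 2 RNase H peaks. On chromosome 11, 6.12% of 216-base windows held a HindIII site and 5.03% of 200-base windows an EcoRI site.

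The first 1000 bases of both RNAs were rich in G over C, but they differed in base composition. At NEAT1 they were 60.4% GC with a GC skew of 0.23, and at MALAT1 32.7% GC with a skew of 0.38. Of the 2286 chromosome 11 genes of at least 1000 bp, 96.8% had a lower skew than NEAT1 and 99.7% a lower skew than MALAT1 over the same length, whereas 73.3% had a lower GC content than NEAT1 and 2.27% a lower one than MALAT1. The median over these genes was 52.0% GC and a skew of 0.029. These genes were read from their annotated gene starts, NEAT1 from the start of its long isoform and MALAT1 from its main start. The MALAT1 main start lies inside the annotated gene. The 1405 bp of the gene before it had 52.3% GC and a skew of -0.018, so the MALAT1 placings hold for the main start only.

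In untreated cells the 5′ end of NEAT1 carried one of the highest-ranked peaks of each list, and MALAT1 carried several of lower rank. Peaks covered 7906 and 13773 bp of the NEAT1 window in NT replicates 1 and 2, and 3862 and 5918 bp of the MALAT1 window. The NEAT1 values were above the MALAT1 values in both lists. The best NEAT1 peak ranked 272 of 30314 and 13 of 52967 by fold enrichment, and the best MALAT1 peak 9594 and 3979. In NT lists the MALAT1 peaks were 302 to 1587 bp wide, compared with 4573 and 5482 bp for the NEAT1 start peak. A base covered at any height counts the same, so the covered length describes the spread of the peaks and the rank their height.

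A single block at the 5′ end of NEAT1 was covered in all 6 DRIP lists. It ran from 65188773 to 65193345 (4573 bp), from before the start to inside the short isoform, and in all 4 CPT lists it extended to 65188614 on the left. The best peak of the window contained this block in every DRIP list, with ranks of 272 and 13 in NT, 69 and 13 at 5 min and 69 and 38 at 60 min. All 6 summits lay 140 to 161 bases after the start, beside the HindIII site. Of the 3684 bp of the short isoform, peaks covered 3101 and 3684 bp in NT, the same 3101 and 3684 bp at 5 min, and 3101 bp in both replicates at 60 min. The covered length of the short isoform was thus equal in NT and 5 min CPT replicate by replicate.

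**Figure D1:**
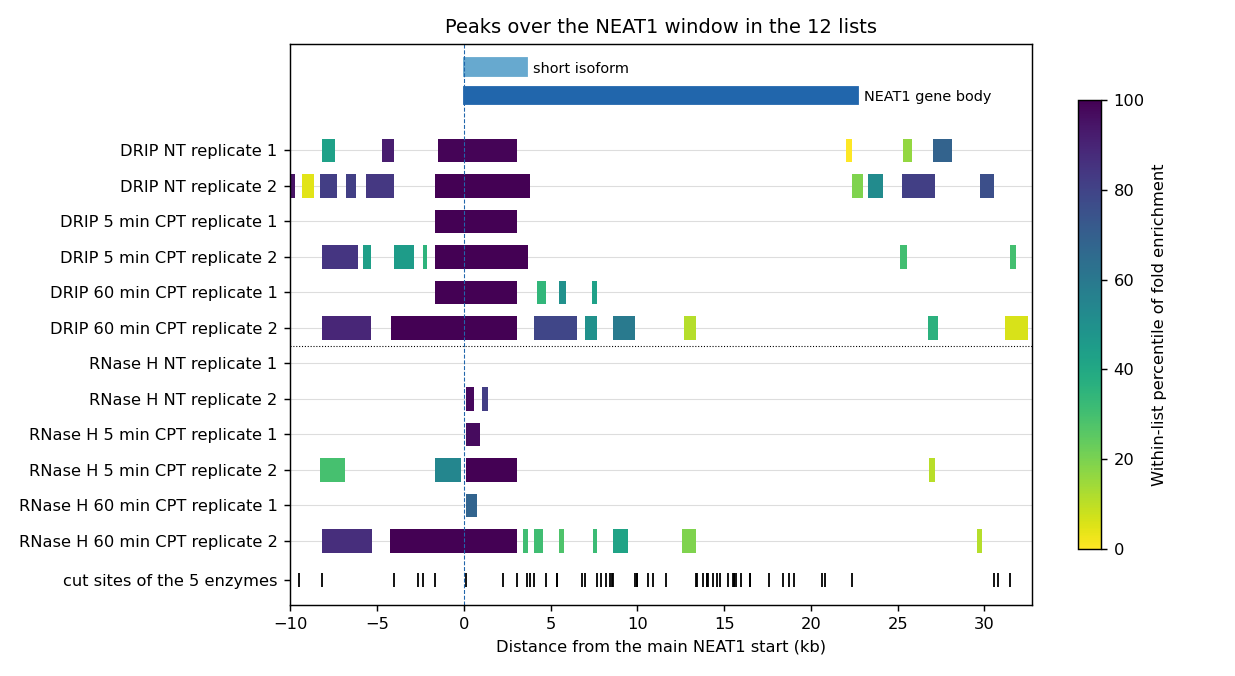
Peaks over the NEAT1 window, by distance from the start of the long isoform in kb (x axis), in the 6 DRIP lists above the dotted line and the 6 RNase H lists below it. Colour is the within-list percentile of fold enrichment, blue bars are the gene body and the short isoform, and ticks are cut sites. The start block is present in all 6 DRIP lists, and 3 small stretches of the long isoform are covered in both 60 min DRIP lists and no other DRIP list. Each of these stretches is also partly covered in the RNase H list of 60 min replicate 2.

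The rest of the long NEAT1 isoform, beyond the end of the short one (65193929-65213011, 19083 bp), was nearly free of peaks except after 60 min of CPT. Covered lengths were 326 and 547 bp in NT, 0 and 8 bp at 5 min, and 1247 and 5182 bp at 60 min. Both 60 min lists were above all other DRIP lists. Relative to NT the differences were 921 and 4635 bp in replicates 1 and 2 at 60 min, and -326 and -539 bp at 5 min. In all, 3 stretches were covered in both 60 min lists and in no other DRIP list, at 65194504-65194995, 65195751-65196176 and 65197632-65197960, 1247 bp in total. In replicate 1 these were 3 peaks at percentiles 34.0, 49.7 and 43.3 of their list, so they were far weaker than the start block. The RNase H list of 60 min replicate 2 covered 2768 bp of the same part, and the other 5 RNase H lists none of it. Its peaks at 65194301-65194842, 65195750-65196029 and 65197696-65197960 each covered a part of 1 of the 3 stretches. These stretches were singled out after the peaks had been seen, and no test is given for them.

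The distal body of NEAT1 had no peak in any of the 12 lists over 8659 bp (65203651-65212309). This stretch held 23 cut sites, which give pieces of 361 bp on average, compared with 2 sites and 1524 bp in the start block. Its GC content was 45.5% with a skew of 0.057, and that of the start block 54.1% with a skew of 0.12. The part of cut site density in the missing peaks was not tested.

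The 10 kb downstream of NEAT1 were covered less in CPT than in NT, replicate by replicate. NT lists had 1571 and 3741 bp, 5 min lists 0 and 794 bp, and 60 min lists 0 and 1929 bp. Both 5 min lists were below both NT lists, whereas the 60 min value of replicate 2 lay between the NT values. Upstream, the values were 2908 and 5801 bp in NT, 1631 and 5661 bp at 5 min, and 1631 and 7018 bp at 60 min, and all 3 groups overlapped.

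Over the whole NEAT1 window the covered lengths of NT and CPT lists overlapped at both times, and the 5 min list was the shorter within each replicate. Peaks covered 4732 and 10147 bp at 5 min and 5979 and 17230 bp at 60 min, against the 7906 and 13773 bp of NT. The mean difference from NT was -3400 bp at 5 min (two-sided exact permutation test, p = 0.667) and 765 bp at 60 min (exact p = 1), and that between 60 and 5 min was 4165 bp (exact p = 0.667). By replicate the difference from NT at 5 min was -3174 and -3626 bp, close to each other, whereas at 60 min it was -1927 and 3457 bp and turned in sign. That between 60 and 5 min was 1247 and 7083 bp. With 2 lists against 2 the smallest p of this test is 0.333. By mean covered length the order was 60 min, NT and 5 min, and neighbours in it overlapped. Relative to the length of each list, NEAT1 took 255 and 231 bp per Mb covered in NT, 190 and 216 at 5 min and 173 and 210 at 60 min. On this scale both CPT groups lay below NT without overlap, and the 60 min difference turned from positive to negative. Of all genes tested, 17.2% were lower in this way at 5 min and 15% at 60 min.

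MALAT1 was higher in covered length and in rank at both times of CPT than in NT, without overlap between the lists. Peaks covered 6092 and 10915 bp of the window at 5 min and 7087 and 11636 bp at 60 min, compared with 3862 and 5918 bp in NT. All 4 CPT lists were above both NT lists, which both comparisons share. Within replicates 1 and 2 the differences from NT were 2230 and 4997 bp at 5 min and 3225 and 5718 bp at 60 min. The mean difference was 3614 bp at 5 min and 4472 bp at 60 min, each with an exact permutation p of 0.333, the smallest that 2 lists against 2 can give. Between 60 and 5 min the difference was 858 bp (exact p = 0.667), and those groups overlapped. The order by mean was 60 min, 5 min and NT. A covered length higher in both lists was found for 15.4% of 38108 genes at 5 min and 25.3% of 37716 genes at 60 min, so MALAT1 shares its direction with a sizeable share of the genes. NEAT1, with overlapping groups, was not among them.

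Relative to list length MALAT1 was also higher in CPT. It took 125 and 99.2 bp per Mb covered in NT, 244 and 232 at 5 min, and 205 and 142 at 60 min. On this scale 20.7% of all genes were higher in both 5 min lists than in both NT lists, and 28.6% in both 60 min lists.

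**Figure D2:**
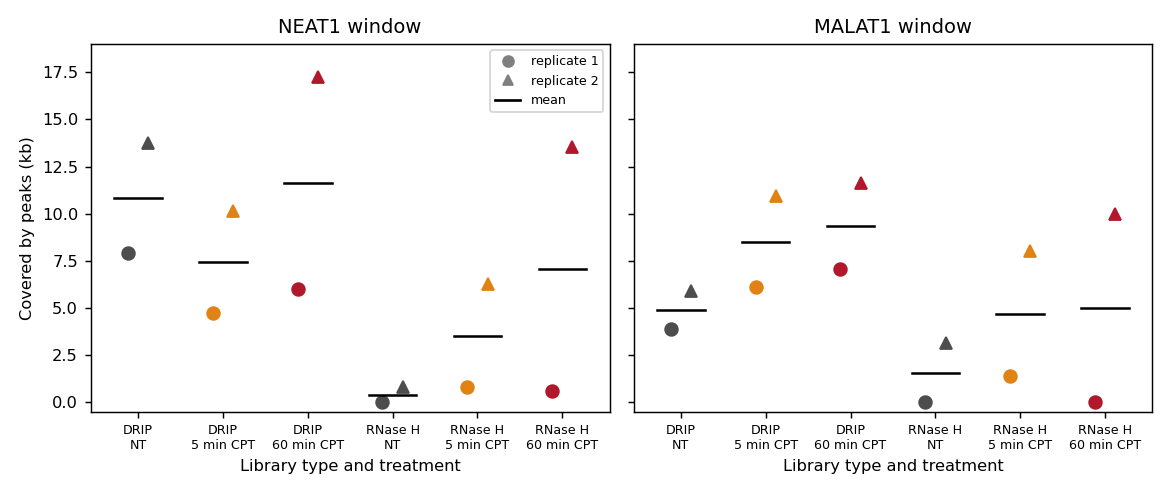
Length covered by peaks in the NEAT1 and MALAT1 windows (kb, y axis) by library type and treatment, with circles for replicate 1, triangles for replicate 2 and lines for the mean of 2. In MALAT1 all 4 CPT DRIP values (6092 to 11636 bp) lie above both NT values, while in NEAT1 the DRIP groups overlap.

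The rank of the best MALAT1 peak separated NT from CPT without overlap in the DRIP lists. The best peak ranked 9594 of 30314 and 3979 of 52967 in NT, 68 of 33852 and 31 of 56543 at 5 min, and 32 of 41668 and 152 of 72879 at 60 min. As percentiles these were 68.4 and 92.5 in NT, 99.80 and 99.95 at 5 min, and 99.93 and 99.79 at 60 min. The best percentile of a window was higher in both 5 min lists than in both NT lists for 17.1% of all genes and in both 60 min lists for 25.6%. For NEAT1, already at 99.1 and 99.98 in NT, the percentiles overlapped between the treatments.

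**Figure D3:**
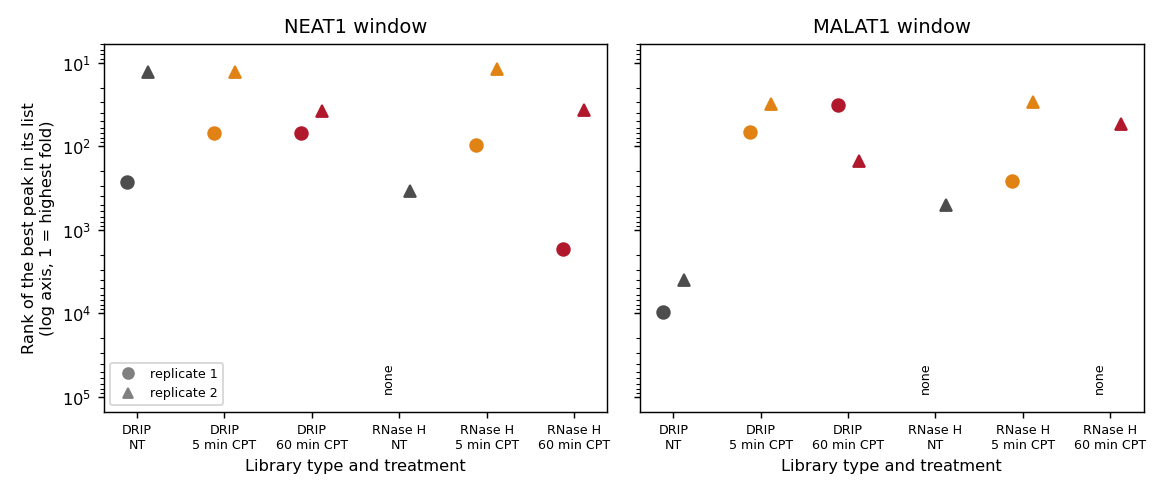
Rank by fold enrichment of the best peak in the NEAT1 and MALAT1 windows (log axis, rank 1 at the top) by library type and treatment, with circles for replicate 1 and triangles for replicate 2; "none" marks a list without a peak. NEAT1 ranks between 13 and 272 in the 6 DRIP lists, and MALAT1 moves from 9594 and 3979 in NT to between 31 and 152 in CPT.

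The higher coverage of MALAT1 in CPT lay mainly inside the transcribed body, in all 4 DRIP lists and in 3 of the 4 RNase H lists. From the main start to the end of the gene (9029 bp), peaks covered 3497 and 2493 bp in NT, 6033 and 8232 bp at 5 min and 7028 and 8560 bp at 60 min. The CPT lists did not overlap with NT. By replicate the DRIP differences from NT were 2536 and 5739 bp at 5 min (mean 4137.5) and 3531 and 6067 bp at 60 min (mean 4799). The RNase H lists of the same replicates differed from NT by 1364 and 6917 bp at 5 min (mean 4140.5) and by 0 and 6625 bp at 60 min (mean 3312.5). The mean difference at 5 min was thus about as large after RNase H digestion as without it, and at 60 min the RNase H difference came from replicate 2 alone. Both NT RNase H lists were short (473 and 15790 peaks), and the part of list length in these differences was not tested. Where NT DRIP lists had short separate peaks, CPT lists had long ones, from 65266457 to 65268426 (1970 bp) and from 65269326 to 65272463 (3138 bp) at 5 min in replicate 1, and a single peak of 8619 bp from 65266457 to 65275075 at 60 min in replicate 2. The number of peak summits in the window was accordingly lower in CPT, by 3.5 on average at 5 min and 4 at 60 min, although more bases were covered.

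All 4 CPT DRIP peaks nearest the 5′ end began at 65266457, 59 bases before the main start, at the EcoRI site shown above. No NT peak reached the start itself: the first NT peaks of both replicates began at 65266787, which is 271 bases after it. The 3107 bp covered in all 4 CPT lists and in no NT list formed 5 stretches, the longest 65269326-65270876 (1551 bp) and the first 65266457-65266786 (330 bp). Conversely 2052 bp in 4 stretches were covered in all 6 DRIP lists, the longest of them 65267539-65268426 (888 bp), at 43.0% GC and a skew of 0.34. The stretches were chosen after their peaks were seen and are a description.

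Outside the body, coverage of MALAT1 differed in the opposite direction or between replicates. The downstream 10 kb had 365 and 3425 bp in NT, 0 and 896 bp at 5 min and 0 and 389 bp at 60 min, lower in CPT in both replicates although the groups overlapped. The RNase H lists covered 0 and 2845 bp there in NT, 0 and 210 bp at 5 min and 0 and 1486 bp at 60 min. In replicate 2 they were thus also lower in CPT, and most of the NT length remained after RNase H digestion. The upstream 10 kb had no peak in NT or in replicate 1 of CPT, and 1728 and 2628 bp in replicate 2 at 5 and 60 min. The ratio of MALAT1 to NEAT1 covered length was 0.49 and 0.43 in NT, 1.29 and 1.08 at 5 min, and 1.19 and 0.68 at 60 min, again as a description.

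**Figure D4:**
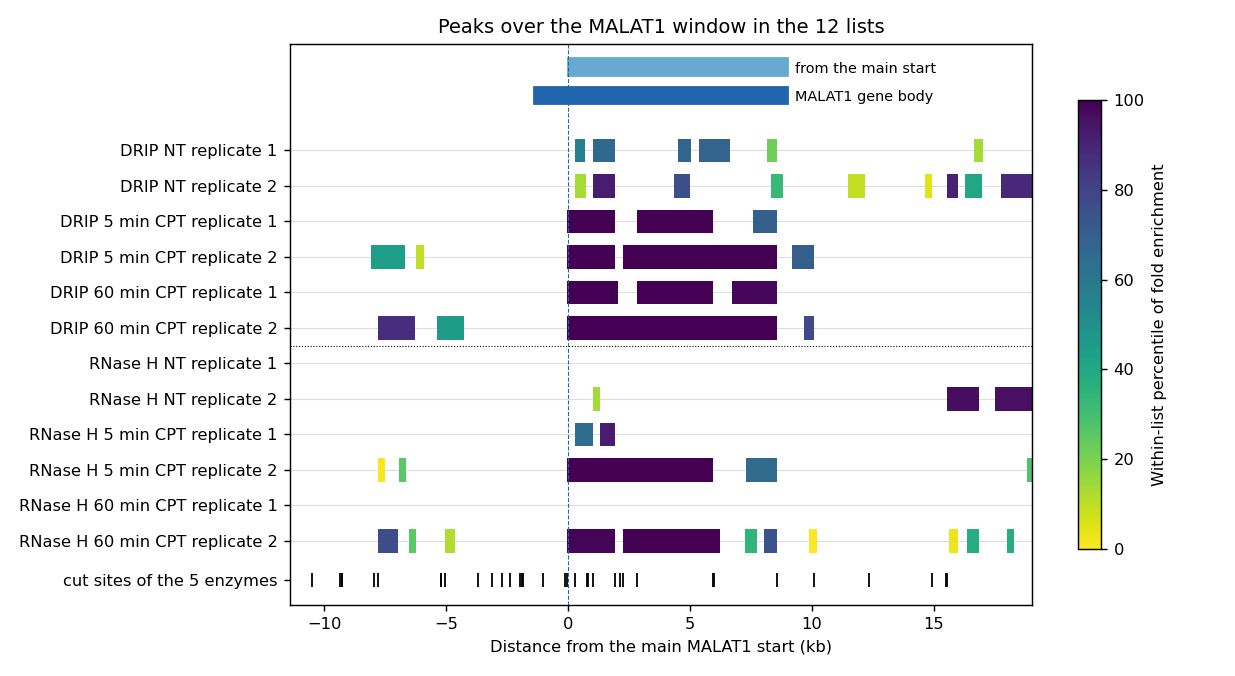
Peaks over the MALAT1 window, by distance from the main start in kb (x axis), in the 6 DRIP lists above the dotted line and the 6 RNase H lists below it, coloured by within-list percentile of fold enrichment. Blue bars are the gene body and its part from the main start, and ticks are cut sites. The short NT peaks of the body contrast with long peaks that start 59 bases before the main start in all 4 CPT DRIP lists.

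Many peak edges at the 2 genes coincided to the base with cut sites, which set the resolution of these maps. Of the 132 edges of the 66 DRIP peaks, 54 (40.9%) lay exactly at a cut of 1 of the 5 enzymes, and of the 76 edges of the 38 RNase H peaks 27 (35.5%). Over all peaks of chromosome 11 the shares were 30.0% for DRIP and 26.1% for RNase H. The sites below, with 15 bases on each side, formed an edge in at least 4 lists.
NEAT1 left edge, SspI, chr11:65182049-65182084, 4 lists: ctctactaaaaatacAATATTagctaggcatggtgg
NEAT1 left edge, XbaI, chr11:65188598-65188633, 5 lists: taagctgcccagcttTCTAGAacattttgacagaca
NEAT1 left edge, HindIII, chr11:65190392-65190427, 4 lists: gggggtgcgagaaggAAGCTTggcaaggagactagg
NEAT1 right edge, SspI, chr11:65193328-65193363, 6 lists: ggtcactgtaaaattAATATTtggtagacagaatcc
MALAT1 left edge, EcoRI, chr11:65266441-65266476, 6 lists: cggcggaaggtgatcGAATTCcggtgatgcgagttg
MALAT1 right edge, HindIII, chr11:65268407-65268442, 6 lists: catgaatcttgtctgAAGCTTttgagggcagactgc
MALAT1 right edge, XbaI, chr11:65275056-65275091, 7 lists: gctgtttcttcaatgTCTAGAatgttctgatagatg
A site of at least 1 of the 5 enzymes was present in 5.72% of 36-base windows of chromosome 11. In the CPT lists the NEAT1 block ended at the second SspI site in 3 of 4 lists, and its shared stretch from the XbaI site crossed 2 further sites. At MALAT1 the last XbaI site ended a peak in 5 of the 6 DRIP lists, NT replicate 1 among them. The position of a hybrid within a fragment cannot be read from these edges.

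The covered length of both windows was lower in the RNase H list than in the DRIP list of every pair, to a widely varying extent. For NEAT1 the RNase H lists covered 0 and 783 bp in NT, 798 and 6259 bp at 5 min, and 588 and 13559 bp at 60 min. For MALAT1 they covered 0 and 3119 bp in NT, 1364 and 8021 bp at 5 min, and 0 and 9977 bp at 60 min. The RNase H values of replicate 2 in CPT exceeded the DRIP values of replicate 1 in all 4 cases. As a share of the paired DRIP value they reached 61.7% and 78.7% for NEAT1, and 73.5% and 85.7% for MALAT1, at 5 and 60 min in replicate 2, but at most 22.4% in replicate 1. In NT replicate 2 the share was 5.69% for NEAT1 and 52.7% for MALAT1. Between treatments the RNase H lists of MALAT1 were 3133 bp above NT on average at 5 min (exact permutation p = 0.667) and 3429 bp at 60 min (exact p = 1), with overlapping groups, beside 3614 and 4472 bp in DRIP. Those of NEAT1 were 3137 bp (exact p = 0.333) and 6682 bp (exact p = 0.667) above NT.

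Over the 6 lists of each kind the mean difference between DRIP and RNase H was 6297 bp for NEAT1 (exact permutation p = 0.0649) and 3838 bp for MALAT1 (exact p = 0.113). Without replicate 1 the MALAT1 difference was 2451 bp, and without replicate 2 it was 5226 bp. With both libraries of a replicate taken as a pair, since they come from the same digested DNA, DRIP was higher in 6 of 6 pairs and the exact p was 0.0313 for either gene, the smallest that 6 pairs can give. In each pair the DRIP list also held more peaks. Cut to equal length within each pair, the lists differed by 4960 bp for NEAT1 (unpaired exact permutation p = 0.113) and 2535 bp for MALAT1 (exact p = 0.323). DRIP was then higher in 6 of 6 pairs for NEAT1 and in 5 of 6 for MALAT1. Per Mb covered in each list the mean difference was negative for both genes, -7.13 for NEAT1 and -104 for MALAT1. The RNase H list of 5 min replicate 1, with 1.62 Mb covered in all, gave 844 bp per Mb at MALAT1. Both DRIP lists were above both RNase H lists at NEAT1 and MALAT1 in NT only. The same held for 48.6% of all genes in NT, 21.9% at 5 min and 11.5% at 60 min.

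Within the NEAT1 block the RNase H peaks began at the HindIII site 139 bases after the start in 4 of the 5 lists that had any. They were 434, 798, 2938 and 588 bp wide in NT replicate 2, 5 min replicates 1 and 2, and 60 min replicate 1. Their ranks were 345 of 15790, 98 of 3439, 12 of 50353 and 1719 of 5392. The stretch before the HindIII site, covered in all 6 DRIP lists, was thus absent from 3 of these 4 lists and a separate peak of percentile 54.0 in the other. In the remaining list, 60 min replicate 2, a single RNase H peak of 7328 bp (65186018-65193345) spanned the whole block. It ranked 37 of 67188, beside 38 of 72879 for the DRIP peak of the same replicate. At MALAT1 the best body peak of the RNase H lists ranked 260 of 3439 and 30 of 50353 at 5 min and 55 of 67188 at 60 min in replicate 2. NT replicate 2 had only 1 RNase H peak in the body, of 274 bp, and its best peak in the window, ranked 513 of 15790, had its summit 15605 bases after the main start.

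For FRMD8 and SLC25A45, the protein-coding genes next to NEAT1 on its upstream side, the CPT lists did not separate from the NT lists. Values here are the percent of each gene's window (body plus 10 kb) covered by DRIP peaks. MALAT1 itself had 12.7% and 19.4% in NT, 20.02% and 35.9% at 5 min and 23.3% and 38.2% at 60 min, and NEAT1 18.5% and 32.2%, 11.1% and 23.7%, and 14.0% and 40.3%. FRMD8, upstream of NEAT1, had 12.05% and 49.4% in NT, 5.90% and 18.0% at 5 min and 9.92% and 48.5% at 60 min, and SLC25A45, a mitochondrial carrier family member beyond it, had 0.772% and 17.2%, 0% and 4.30%, and 2.21% and 17.2%.

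Of the other annotated genes inside the windows, TALAM1 and ENSG00000270117 share bases with the MALAT1 body. The bodies of the rest lie outside NEAT1 and MALAT1, but their windows share bases with those of the members. The lists carry no strand. TALAM1, the antisense transcript of MALAT1 (65266783-65274903), and the short lncRNA genes ENSG00000270117 and ENSG00000290061 had windows higher in both CPT groups, and their windows hold the peaks of MALAT1. TALAM1 had 13.7% and 18.8% in NT, 21.7% and 38.8% at 5 min and 25.2% and 41.4% at 60 min. Of the remaining genes, ENSG00000290057, ENSG00000291174, LINC02736, ENSG00000286756 and the pseudogene SNRPGP19 overlapped between treatments, and the pseudogene FAUP4 was lower at 5 min (7.73% and 19.8% in NT, 0% and 3.91%), as were 15.3% of all genes. The 32099 bp between the windows carried 0 and 520 bp of peaks in NT, 0 and 3317 bp at 5 min, and 494 and 8533 bp at 60 min, mainly in replicate 2.

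Among all genes, both members ranked high in every DRIP list. The percent covered at NEAT1 was above that of 91.4% to 95.2% of the 64449 genes, and that at MALAT1 above 89.7% to 97.9%. Only 31.7% to 45.3% of these genes had any peak in a DRIP list, so most genes lay below with no covered base. The lowest MALAT1 value was in NT replicate 2 and the highest in 5 min replicate 1. A peak in all 6 DRIP lists was found in the windows of 11431 genes (17.7%), NEAT1 and MALAT1 among them.

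The profile of the 12 lists most like that of NEAT1 belonged to PPP1R26-AS1 and ENSG00000267801, both lncRNA genes, and CENPO, which encodes a centromere protein, at Euclidean distances of 8.73, 8.76 and 9.17 percentage points. For MALAT1 the closest were MTMR11, a myotubularin family gene, and the lncRNA gene ARHGEF18-AS1 at distances of 9.66 and 13.9. They were found among 24807 coding and lncRNA genes with a covered base in at least 3 lists. Likeness here is over 12 lists that differ strongly in length, which all genes share.

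The 3 gene lists for paraspeckle proteins, nuclear speckle proteins, and RNA processing and end protection held 54 genes. Of these, 15 were higher and 6 lower in both lists than in NT at 5 min of CPT, and 29 were higher and none lower at 60 min. Of all genes, 15.4% were higher and 15.3% lower in this way at 5 min, and 25.3% higher and 8.81% lower at 60 min. Of 20 genes for paraspeckle proteins, 4 were higher in both CPT lists at 5 min and 3 lower, and 9 were higher at 60 min with none lower. The paraspeckle counts at 5 min were near these shares of all genes. NONO and SFPQ, the core proteins that bind NEAT1, were higher at both times. NONO had 0.67% and 0% of its window covered in NT, 6.78% and 12.7% at 5 min, and 7.41% and 15.8% at 60 min, and SFPQ 2.00% and 5.79%, 12.2% and 29.4%, and 12.1% and 28.8%. CPSF6 and CPSF7, subunits of the cleavage factor CFIm, were also higher at both times, with means over the 6 DRIP lists of 3.99% and 18.0%. CIRBP, a cold-inducible RNA-binding protein, had the highest mean of the list (74.8%) and was lower at 5 min, and FAM98A the lowest (0.878%).

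Of 20 genes for nuclear speckle proteins, 9 were higher at 5 min and 1 lower, and 13 were higher at 60 min with none lower. The 9 higher at both times were SON, a scaffold of speckles, PNN, RBM25, EIF4A3, CLK1, a kinase of SR proteins, and the splicing factors SRSF1, SRSF3, U2AF1 and SF3B1. SON had 1.65% and 3.64% in NT, 6.03% and 20.1% at 5 min and 10.3% and 31.4% at 60 min. SRSF1, which colocalises with MALAT1, had 15.1% and 20.1%, 24.1% and 55.0%, and 23.2% and 55.6%. ALYREF, an mRNA export factor, had the highest mean (76.1%) and was lower at 5 min, and DYRK1A the lowest (1.56%). The shares higher at 5 and 60 min stand beside the 15.4% and 25.3% of all genes given above, and they are counts without a test.

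The list for RNA processing and end protection of MALAT1 and NEAT1, mostly RNase P subunits, held 14 annotated genes. POP1 and RPP38, both RNase P subunits, were higher and RPP25 and INTS11 lower at 5 min, and 7 genes were higher at 60 min with none lower. The 5 min counts, 2 higher and 2 lower of 14, were near the 15.4% and 15.3% of all genes. At 60 min 25.3% of all genes were higher and 8.81% lower. POP1 had 1.37% and 1.32% in NT, 4.63% and 8.47% at 5 min and 8.84% and 15.3% at 60 min. INTS11, the Integrator endonuclease, had the highest mean (59.8%) and RPP40 the lowest (1.06%). Another 14 genes were listed as other nuclear lncRNAs, and the place of these RNAs in the cell was not checked. Of the 14, 11 had a peak in the 5 min comparison, where TUG1 and DANCR were higher. In the 60 min comparison 13 had a peak and 6 were higher. None was lower at either time. The same shares of all genes stand beside these counts, 15.4% higher at 5 min and 25.3% at 60 min. TUG1 had the highest mean (19.1%), with 1.87% and 10.998% in NT, 11.3% and 23.7% at 5 min and 17.0% and 49.5% at 60 min, and CYTOR had no peak in any of the 12 lists. The median of the mean percent covered was 18.2% for paraspeckle, 14.9% for speckle and 7.08% for processing genes and 3.87% for the lncRNA genes, beside 1.78% for the 41309 genes with a covered base in any DRIP list. MALAT1 and NEAT1, at means of 24.9% and 23.3%, were above all 14 of the other listed lncRNA genes. Several of these, CYTOR among them, are longer genes than either member, and the percent covered was not adjusted for gene length. The annotation used types TUG1 as protein-coding.

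**Figure D5:**
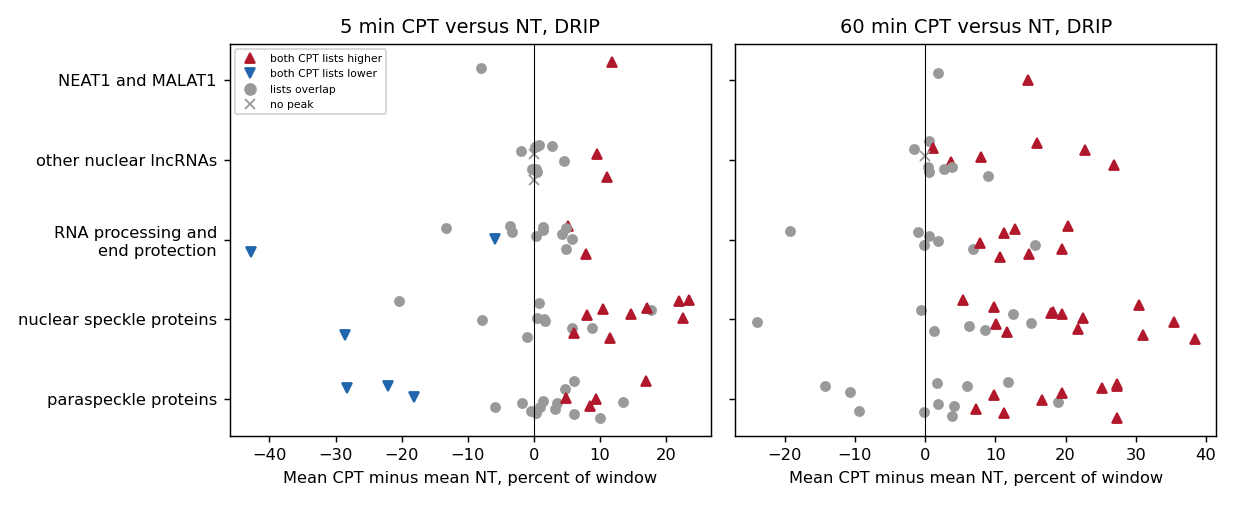
Difference in mean percent of the window covered between CPT and NT DRIP lists (x axis, percentage points) for the genes of the 4 lists and for NEAT1 and MALAT1, at 5 min (left) and 60 min (right). Red triangles are genes higher in both CPT lists than in both NT lists, blue triangles genes lower in both, circles genes whose lists overlap and crosses genes without a peak. At 60 min no gene of the 4 lists was lower in both CPT lists.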

How the data were processed

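HCT116 cells gave 18 samples, 6 DRIP, 6 RNase H and 6 input libraries, grouped by treatment from the sample titles, and the 12 peak lists of the DRIP and RNase H libraries were analysed. Per the methods and the submitters' processing notes, trimming by the authors used Cutadapt and alignment to hg19 BWA; after filtering of blacklisted regions and duplicates, MACS2 called peaks in each library with its input as control. Each deposited peak holds a fold enrichment (a ratio to input at the summit), and its deposited −log10 p and q belong to that summit. The deposited score, a rescaled q, was not used. Spike-in scaling and the read counts tested by the authors are not part of the lists, so an absolute change in hybrid level cannot be read from them.

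Here, peaks were intersected with gene windows (body plus 10 kb, GENCODE 44 on GRCh37), giving covered bp and the best within-list rank. Means over lists were compared with two-sided exact permutation tests. DRIP and RNase H lists of a replicate were paired, as the methods state that they share digested DNA. A gene was called higher or lower where the groups of 2 lists did not overlap, over all genes with a covered base. Replicates are biological per the methods. Restriction sites were located in GRCh37. Genes named beside the members were those inside or next to the windows, the highest, the lowest and those called at both times in 4 gene lists, and the 3 most like profiles; CCAT1 and RPPH1 of the lists were not matched in the annotation, and 2 genes that the rule names are not reported here. The members and lists were chosen with earlier results of these data known. Alternatives were peaks with −log10 q of 3 or more, lists cut to equal length, other windows, scales and measures, each replicate left out and a replicate block. Python 3.11.15, NumPy 2.4.6, pandas 2.3.3, SciPy 1.17.1 and Matplotlib 3.10.9 were used.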

Additional observations from a re-analysis of the deposited data

Results flagged for a closer look

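Replicate-numbered differences from NT were positive in both replicates of one group and negative in both of the other in 4 results, all at NEAT1. None of these differences between effects was tested. In the DRIP lists the covered length of the NEAT1 gene body was -326 and -539 bp against NT at 5 min and 921 and 4052 bp at 60 min, a difference of 2919 bp between the mean effects. In the rest of the long isoform, beyond the short one, that difference was 3210.5 bp. In the whole NEAT1 window the 5 min effect was -3174 and -3626 bp in DRIP and 798 and 5476 bp in RNase H lists, 6537 bp apart on average, and in the gene body alone 1909 bp apart. The NT RNase H list of replicate 1 held 473 peaks and none in this window, so its differences can take no negative value.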

How the results depend on the processing

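Of 88 values computed under alternatives for the 8 tested results, 67 kept their direction and their side of the 0.05 threshold, 15 reversed and 6 newly passed it. Per Mb covered, differences reversed for NEAT1 at 60 min against NT (-51.4), 60 against 5 min (-11.2) and DRIP against RNase H (-7.13), and for MALAT1 at 60 against 5 min (-64.6) and DRIP against RNase H (-104). Counted as peak summits they reversed for MALAT1 at 5 min (-3.5), 60 min (-4) and 60 against 5 min (-0.5), and for NEAT1 at 60 min (-1.5). By the best percentile of fold enrichment and of −log10 p, NEAT1 at 5 min became 0.35 and 0.077, and MALAT1 at 60 against 5 min -0.015 and -0.061. With lists of equal length, NEAT1 at 60 min was -278.5 bp. Leaving out each replicate gave -1927 to 3457 bp for that result, negative without replicate 2. The NEAT1 difference between DRIP and RNase H passed the threshold with −log10 q of at least 3 (6386 bp, exact permutation p = 0.0368), the gene body alone (2640 bp, exact p = 0.0455), 5 kb flanks (5042 bp, exact p = 0.0368) and the best percentile of fold enrichment (22.6, exact p = 0.0455). In the paired fit, the replicate block, both differences between DRIP and RNase H passed it (6297 and 3838 bp, exact p = 0.0313). For the treatments, same-numbered libraries deviated together across genes (correlations of 0.54 to 0.68), but replicate 2 had the longer lists throughout and 2 numbers do not establish a pairing. The block left the differences as they were, at an exact p of 0.5 or 1, and 0.5 is the smallest it can give.

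Counts of genes fell with the gene body alone, where fewer genes were tested: to 3657 higher and 3733 lower of 23840 at 5 min, from 5874 and 5828, to 6150 higher and 2008 lower of 24817 at 60 min, from 9541 and 3323, and to 9638 in NT and 4792 at 5 min for DRIP above RNase H, from 15436 and 8083. With lists of equal length DRIP was above RNase H for 1388, 967 and 407 genes in NT, 5 and 60 min. Per Mb covered, a scale added after the data had been seen, 5672 genes were lower at 60 min.
The lists give no depth, so small differences between peaks near the threshold could not be resolved. The causes of these changes were not tested.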
